A study of Mus musculus with 12 samples.

Results

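The genes described here are 10 genes by which epithelial and mesenchymal cells are told apart, namely the keratins Krt7, Krt8, Krt18 and Krt19, the cadherins Cdh1 and Cdh2, Epcam, Tjp1, Vim and Fn1. They were taken by symbol from a list drawn up with earlier results of these data known, and all 10 were among the 24824 genes of the deposited table. FPKM scales fragments to transcript length and to the reads of the library, so levels can be compared between genes. Krt8, Krt18, Krt19, Cdh2, Tjp1, Vim and Fn1 had a mean of at least 1 FPKM over the libraries and were among the 10615 genes tested, while Cdh1, Epcam and Krt7 lay below that filter and are described separately.

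RNA sequencing was performed on AML12, an immortalized mouse hepatocyte line, wild type by its label, in 4 groups of 3 libraries. Group A was kept without added compounds, group B received 300 μM CuCl2 with 40 nM elesclomol (ES), a copper ionophore, group C received the same Cu/ES together with 1000 μM taurocholic acid (TCA), a conjugated bile acid, and group D received 1000 μM TCA alone. Exposure lasted 24 h, and all groups share the same cell line and RNA preparation from polyadenylated RNA. The comparison of groups B vs. A asks what copper loading did, C vs. D asks the same in the presence of TCA, and C vs. B and D vs. A ask what TCA added with and without Cu/ES. B vs. A and C vs. D have no library in common, and neither have C vs. B and D vs. A, but B vs. A shares group B with C vs. B and group A with D vs. A.

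Epithelial cells carry keratin filaments built from paired type I and type II keratins, adhere to each other through the E-cadherin encoded by Cdh1 and the cell surface protein encoded by Epcam, and seal their borders with tight junctions that hold the scaffold ZO-1, the product of Tjp1. Mesenchymal cells use vimentin filaments, N-cadherin, the product of Cdh2, and a fibronectin matrix. In an epithelial-mesenchymal transition the first set is lowered and the second raised, in part by SNAIL, ZEB and TWIST factors, and hepatocytes are unusual among epithelia in holding only the simple keratins encoded by Krt8 and Krt18 and in using N-cadherin beside E-cadherin.

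The recovered library totals were 38298868 to 39108531 reads in group A, 30773761 to 32002334 in group B, 29115020 to 34912758 in group C and 39444432 to 39782154 in group D. The labelled cell type was not borne out by hepatocyte markers: 10 of 12 listed markers were in the table, none reached a mean of 1 FPKM, and their summed level was 0.679 to 1.32 FPKM in group A. Alb and Hnf4a, the albumin and hepatocyte nuclear factor genes, were listed at 0 in every library of groups A and D. The highest of the listed markers was Apoa2, an apolipoprotein gene, with a mean of 0.848 FPKM over the libraries. These 3 genes were named after their values were seen. In each group, replicate 2 differed more from replicates 1 and 3 than these did from each other, most of all in group C, where the chi-square per gene was 56.7 and 49.7 for pairs with replicate 2 and 6.14 for the other pair. Values of the 10 genes that involve group C are therefore also given without its replicate 2 where that changed a call. Genes of the lists around them were not examined without that library. Nothing in the labels says that replicates were separate cultures, so p-values measure only the spread between these libraries.

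Cu/ES moved the whole expression profile, so each change has to be read against it. On the log2(FPKM + 1) scale the median over all 10615 genes tested differed by -1.10 in B vs. A and by -1.13 in C vs. D, against -0.03 in C vs. B and -0.01 in D vs. A. In B vs. A, 53.0% of genes fell and 10.1% rose past both thresholds, namely an adjusted p under 0.05 together with a log2 fold change beyond 1 in size. When the libraries were scaled by median ratios, these shares were 25.5% and 25.9%. In bulk RNA, fewer cells that hold a transcript and less of it per cell cannot be told apart.

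Promoter sequence was at hand for 6 of the 10 genes, namely Krt7, Krt8, Krt18, Epcam, Tjp1 and Vim (RefSeq, assembly GRCm38.p6). The E-box CACCTG, which SNAIL and ZEB repressors are known to bind, was searched on both strands in the 250 bases before each start. It was present in the promoters of Krt7, Krt8, Krt18 and Epcam, with more than one site in Epcam, and was not found in those of Tjp1 and Vim. Of all 32851 promoters, 17.2% held it. The windows are shown because they give the place of these letters in epithelial genes that were measured; capitals mark the motif or its reverse complement, and each sequence runs 5′ to 3′ along the strand of its gene.
Krt7, chr15:101412332-101412391, plus strand: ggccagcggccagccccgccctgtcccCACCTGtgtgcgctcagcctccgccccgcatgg
Krt8, chr15:102004421-102004480, minus strand: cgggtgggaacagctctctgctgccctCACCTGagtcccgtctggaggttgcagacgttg
Krt18, chr15:102027975-102028034, plus strand: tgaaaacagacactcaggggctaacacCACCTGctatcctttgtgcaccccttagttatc
Epcam, chr17:87635765-87635824, plus strand: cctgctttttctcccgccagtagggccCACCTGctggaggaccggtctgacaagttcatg
Epcam, chr17:87635933-87635978, plus strand: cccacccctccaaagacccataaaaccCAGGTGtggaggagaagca

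The motif began 44 bases before the start of Krt7, 111 before that of Krt8, 214 before that of Krt18, and 187 and 19 before that of Epcam. Krt8 and Krt18 are neighbours, with 0 protein-coding genes between them. A heat shock element (GAANNTTC) was in 0 of the 6 promoters against 6.69% of all, and a metal response element (TGCACNC or TGCGCNC) in those of Krt7 and Krt18 against 21.4% of all. A match of letters is a description of the window and not evidence of binding.

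**Figure D1:**
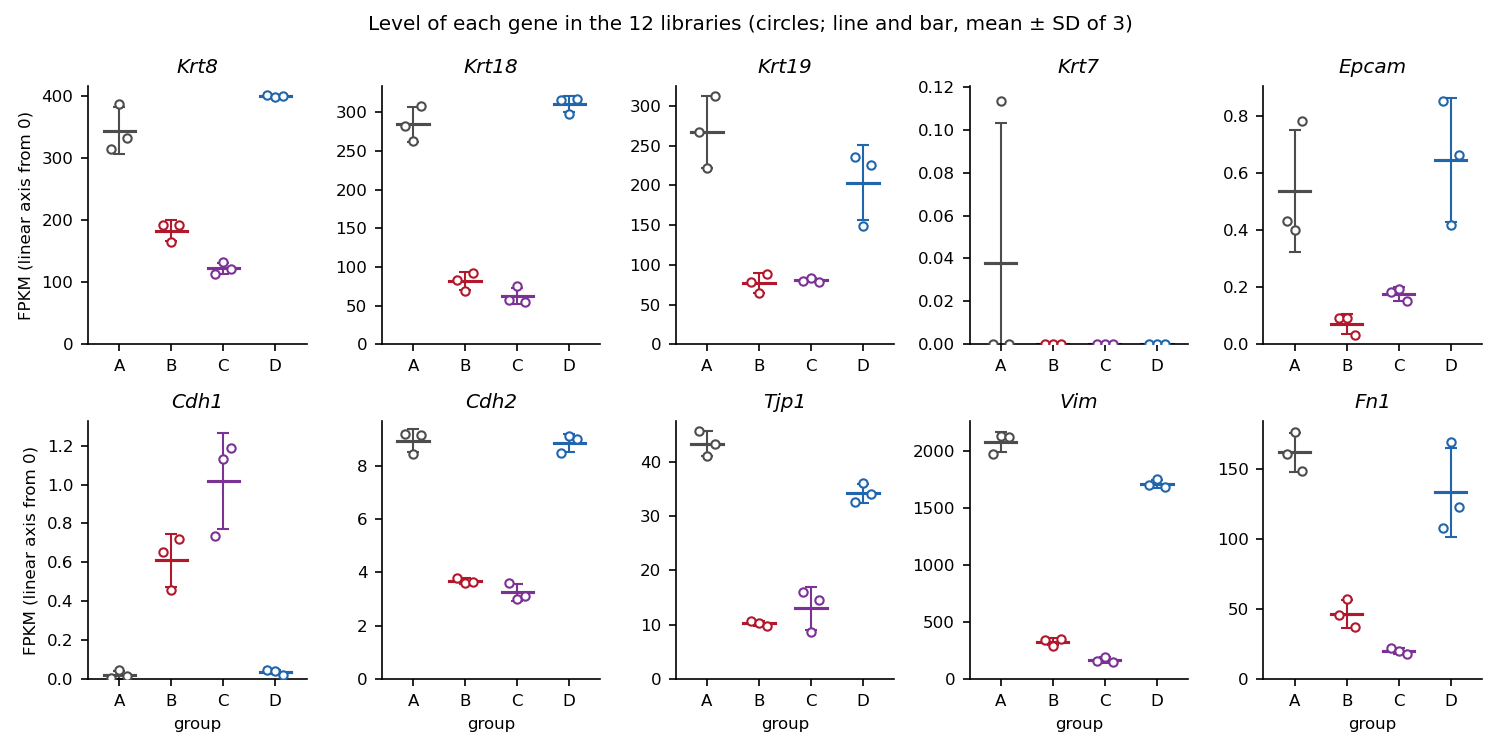
Level of each of the 10 genes in FPKM (linear axes from 0, one scale per gene) in groups A, B, C and D, with each library as a circle and the mean ± SD of 3 libraries as line and bar. Vim stood at 1979 to 2133 FPKM in group A and at 153 to 194 FPKM in group C, while Cdh1 stood at 0.0464 FPKM or less in group A and at 0.736 FPKM or more in group C.

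In control cells the mesenchymal filament gene was the highest of the 10. Vim averaged 2080 ± 87.2 FPKM (SD, n = 3) in group A, followed by Krt8 at 344 ± 37.7, Krt18 at 285 ± 22.7, Krt19 at 268 ± 45.2, Fn1 at 162 ± 14.0, Tjp1 at 43.3 ± 2.29 and Cdh2 at 8.94 ± 0.431 FPKM. Epcam averaged 0.537 ± 0.212 FPKM, and Krt7 and Cdh1 were near 0. The ranges of Krt18 and Krt19 overlapped, as did those of Krt7 and Cdh1, and all other neighbours in the order were separate. The order of the 7 higher genes was the same in groups A, B and D, although the ranges of Krt19 and Fn1 overlapped in group D. In group C, Krt19 stood above Krt18 with no overlap, and in groups B and C, but not in A or D, Cdh1 stood above Epcam with no overlap.

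Krt8 encodes the type II keratin of simple epithelia. It measured 313, 386 and 331 FPKM in the libraries of group A, 192, 164 and 192 in B, 113, 132 and 122 in C, and 401, 399 and 400 in D. The 4 groups did not overlap, with C lowest and D highest. By limma with Benjamini-Hochberg adjustment over all genes tested, Krt8 was lower by 0.90 on the log2 scale in B vs. A (95% interval of the difference -1.09 to -0.72, adjusted p = 1.4e-07), which passed the adjusted p but not the fold threshold and was a smaller difference than the median of all genes. For C vs. D the difference was -1.71 (SE 0.09, adjusted p = 9.87e-11). TCA on top of Cu/ES lowered Krt8 again, by 0.58 in C vs. B (SE 0.09, adjusted p = 1.39e-04). TCA alone gave a difference of 0.22 in D vs. A (interval 0.04 to 0.41, adjusted p = 0.0806), which became 0.31 without replicate 2 of group A (adjusted p = 0.0242). The sign in B vs. A depended on scaling: under median-ratio scaling, which set the median gene near 0, Krt8 was higher by 0.38 (adjusted p = 0.00257). Quantile normalization also brought the median of all genes near 0 (-0.10), but there Krt8 differed by -1.43 (adjusted p = 5.8e-10). Under TPM the difference was -1.28 (adjusted p = 2.79e-10).

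Krt18 encodes the type I partner of the Krt8 product. It measured 283, 263 and 309 FPKM in group A, 83.8, 69.1 and 92.7 in B, 57.8, 74.9 and 54.6 in C, and 316, 299 and 317 in D. Groups B and C lay below every library of A and D, and overlapped with each other. Krt18 fell by 1.79 in B vs. A (SE 0.12, adjusted p = 1.91e-09, limma) and by 2.31 in C vs. D (SE 0.12, adjusted p = 1.06e-10), to 28.7% and 20.1% of the reference group. Both falls were larger than the median of all genes and remained under median-ratio scaling, at -0.52 (adjusted p = 0.00309) and -1.06 (adjusted p = 5.51e-06). Between C and B the difference was -0.39 (adjusted p = 0.0165), but the libraries overlapped and the call was lost without any of B replicate 1, B replicate 3, C replicate 1 or C replicate 3 (adjusted p = 0.0525 to 0.0822), without a filter on low values (0.064) and in a fit of groups B and C alone (0.056). In D vs. A it was 0.13 (interval -0.13 to 0.38, adjusted p = 0.49).

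Krt19 encodes a smaller type I keratin that is known in liver from bile duct cells and is usually low in hepatocytes. It measured 268, 223 and 313 FPKM in group A, 79.0, 64.1 and 88.7 in B, 79.9, 83.6 and 78.9 in C, and 236, 149 and 225 in D. Groups B and C again lay below all libraries of A and D, and C lay within the range of B. Krt19 fell by 1.78 in B vs. A (SE 0.16, adjusted p = 9.45e-08, limma) and by 1.29 in C vs. D (SE 0.16, adjusted p = 3.15e-06). Under median-ratio scaling the difference was -0.50 in B vs. A (adjusted p = 0.0167) and -0.04 in C vs. D (adjusted p = 0.814). Under quantile normalization it was -2.07 (adjusted p = 2.72e-08) and -1.44 (adjusted p = 1.25e-06). Krt19 gave no call in C vs. B, where the difference was 0.07 (interval -0.28 to 0.43, adjusted p = 0.749). In D vs. A it was -0.41 (interval -0.76 to -0.05, adjusted p = 0.0911), and it passed without replicate 2 of group A (-0.54, adjusted p = 0.04995) and under quantile normalization (-0.57, adjusted p = 0.0204).

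Krt7, the type II keratin known from ducts, was practically absent. It was above 0 in 1 of the 12 libraries, namely replicate 2 of group A, where the level was 0.113 FPKM. In the other 11 libraries Krt7 was listed at 0. For a gene above 0 in only 1 library, reads cannot be recovered from the spacing of values, so no limit of detection is given. No fold change can be given for Krt7. Krt19 was thus present at a high level in libraries in which Krt7 was not detected at this depth.

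Epcam, which encodes an adhesion protein of progenitor and duct cells, was low throughout and lower with Cu/ES. It measured 0.431, 0.399 and 0.782 FPKM in group A, 0.0918, 0.0910 and 0.0315 in B, 0.183, 0.195 and 0.150 in C, and 0.854, 0.418 and 0.663 in D, or 129, 14, 35 and 158 reads per group. No library of B or C reached the lowest of A or D. The reads per total were 7.48 times higher in group A than in B (exact 95% interval 4.30 to 14.1) and 3.66 times higher in D than in C (2.53 to 5.44), where the intervals cover counting error only. In a limma fit of all genes without a filter, Epcam fell by 0.51 in B vs. A (adjusted p = 0.0018), where 39.5% of the genes fell at this threshold, and by 0.48 in C vs. D (adjusted p = 0.00286), where 37.1% did. Under median-ratio scaling the difference in C vs. D was -0.15 (adjusted p = 0.181). Group C lay above group B without overlap, with 2.45 times the reads per total (1.29 to 4.93), while the limma difference of 0.13 had an interval of -0.10 to 0.37 (adjusted p = 0.454). On this scale, to which 1 FPKM is added, the changes of low genes are understated.

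Cdh1, which encodes E-cadherin, went the other way. It was close to 0 without Cu/ES, at 0.00589, 0.0464 and 0.0173 FPKM in the libraries of A, with 0.0454, 0.0400 and 0.0228 FPKM in those of D, and measured 0.655, 0.458 and 0.719 FPKM in B and 0.736, 1.13 and 1.19 in C. The reads numbered 12 in group A, 255 in B, 440 in C and 19 in D. Every library with Cu/ES lay above every library without it, and C lay above B without overlap. Reads per total were 26.2 times higher in B than in A (exact 95% interval 14.7 to 51.3) and 28.6 times higher in C than in D (18.1 to 47.9), again for counting error only. Without a filter on low values, Cdh1 rose by 0.65 in B vs. A (SE 0.09, adjusted p = 7.09e-05, limma) and by 0.95 in C vs. D (SE 0.09, adjusted p = 3.26e-06). In that fit 15.5% and 18.9% of the genes rose at the adjusted p, and these rises of Cdh1 passed under every alternative that was run. The level reached was still low, at 1.02 ± 0.246 FPKM in group C beside 122 ± 9.17 FPKM of Krt8.

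For Cdh1 in C vs. B, reads per total were 1.69 times higher in C (1.45 to 1.98, counting error only) and limma gave a rise of 0.32 (adjusted p = 0.0253). That call was lost without B replicate 2, C replicate 2 or C replicate 3 (adjusted p = 0.0750 to 0.0910), and also with a pseudocount of 0.1, quantile normalization, a fit of groups B and C alone, and limma-voom on recovered reads (0.0619 to 0.211). In D vs. A the difference was 0.02 (interval -0.18 to 0.21, adjusted p = 1), from 19 and 12 reads.

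Cdh2, which encodes N-cadherin, followed the bulk of the transcriptome. It measured 9.21, 8.44 and 9.16 FPKM in group A, 3.79, 3.62 and 3.64 in B, 3.62, 3.01 and 3.14 in C, and 8.48, 9.12 and 9.00 in D. The libraries of A and D overlapped, those of B and C overlapped, and the pairs were well apart. Cdh2 fell by 1.09 in B vs. A (SE 0.08, adjusted p = 4.91e-09, limma) and by 1.22 in C vs. D (SE 0.08, adjusted p = 1.29e-09), which differed from the medians of all genes by 0.02 and -0.09. The direction did not hold across scalings: in B vs. A it was 0.01 under median-ratio scaling (adjusted p = 0.935) and 0.27 under quantile normalization (adjusted p = 0.00286). Between C and B the difference was -0.14 (interval -0.31 to 0.03, adjusted p = 0.163), and in D vs. A it was -0.01 (interval -0.18 to 0.16, adjusted p = 0.955).

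Tjp1 measured 45.6, 41.1 and 43.1 FPKM in group A, 10.7, 10.3 and 9.82 in B, 16.0, 8.58 and 14.5 in C, and 32.6, 36.0 and 34.0 in D. Group D lay below A without overlap, B lay far below both, and replicate 2 of group C lay below every library of B while the other libraries of C lay above. Tjp1 fell by 1.97 in B vs. A (SE 0.16, adjusted p = 1.45e-08, limma) and by 1.37 in C vs. D (SE 0.16, adjusted p = 8.96e-07). Under median-ratio scaling these differences were -0.75 (adjusted p = 1.98e-04) and -0.17 (adjusted p = 0.266). Between C and B the difference was 0.27 (interval -0.06 to 0.61, adjusted p = 0.173), and without replicate 2 of group C it was 0.53 (adjusted p = 7.91e-05). In D vs. A it was -0.33 (interval -0.67 to 0.00, adjusted p = 0.142), with an adjusted p of 0.00306 when the same library was left out of the shared estimate of spread, 0.0113 in a fit of groups A and D alone, and 0.0196 under quantile normalization (-0.45).

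Vim, which encodes vimentin, showed the deepest fall of the 7 genes tested. It measured 1979, 2133 and 2128 FPKM in group A, 347, 292 and 351 in B, 157, 194 and 153 in C, and 1700, 1753 and 1688 in D. The 4 groups did not overlap, in the order A, D, B, C. Vim fell by 2.66 in B vs. A (SE 0.09, adjusted p = 2.06e-12, limma) and by 3.35 in C vs. D (SE 0.09, adjusted p = 2.32e-13), to 15.9% and 9.79% of the reference group. Relative to the median of all genes these were differences of -1.56 and -2.23. TCA on top of Cu/ES lowered Vim by a further 0.98 in C vs. B (interval of the difference -1.17 to -0.78, adjusted p = 3.83e-06), to 50.8% of group B. In D vs. A the difference was -0.28 (SE 0.09, adjusted p = 0.0441), and this call was lost without any single library of groups A or D, or without B replicate 1 or B replicate 3 (adjusted p = 0.0505 to 0.121), and with a pseudocount of 0.1, no filter or median-ratio scaling (0.0641 to 0.172).

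Fn1, which encodes fibronectin, measured 160, 176 and 148 FPKM in group A, 45.5, 57.2 and 37.0 in B, 22.0, 19.9 and 17.6 in C, and 108, 169 and 122.9 in D. Group C lay below B, and B below A and D, without overlap, while A and D overlapped. Fn1 fell by 1.79 in B vs. A (SE 0.16, adjusted p = 7.75e-08, limma) and by 2.67 in C vs. D (SE 0.16, adjusted p = 7.87e-10). Of the 7 genes tested it had the largest change in C vs. B, where it fell by 1.18 (SE 0.16, adjusted p = 7.67e-05), to 42.6% of group B, and was the only one to pass the fold threshold there. In D vs. A the difference was -0.30 (interval -0.65 to 0.05, adjusted p = 0.208), and it was -0.48 without replicate 2 of group D (adjusted p = 0.0403). Under median-ratio scaling the falls of Vim were -1.37 and -2.10, and those of Fn1 -0.52 and -1.44, in B vs. A and C vs. D, all past the adjusted p. The summed level of stellate cell and fibroblast markers was also lower with Cu/ES, at 20.8 to 38.4 FPKM in group A and 1.61 to 2.87 FPKM in B. Unlike Vim and Fn1, its ranges in B and C overlapped. Of the 10 listed markers, 8 were in the table, 5 of them under 1 FPKM in every library. The 2 that were tested fell past both thresholds in B vs. A, against 53.0% of all genes. Col1a1 alone measured 15.9 ± 7.83 FPKM in A. The part of these markers in the result was not tested.

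Counted together, 6 of the 7 genes tested fell past both thresholds in B vs. A, against 53.0% of all genes, and 7 of 7 in C vs. D, against 53.3%. At the adjusted p alone all 7 fell in B vs. A, against 72.0% of all genes. The median of the 7 was -1.79 in B vs. A, with 5 below the median of all genes. In C vs. B, 4 of 7 fell at the adjusted p, namely Krt8, Krt18, Vim and Fn1, against 23.6% of all genes, and 0 rose against 20.4%. In D vs. A, 1 of 7 fell against 11.5%. No gene of the 7 rose past a threshold in any of these comparisons in the fit as described. The exact permutation test on single genes, 3 libraries against 3, two-sided, cannot go below p = 0.1, which every gene tested reached in B vs. A and C vs. D.

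**Figure D2:**
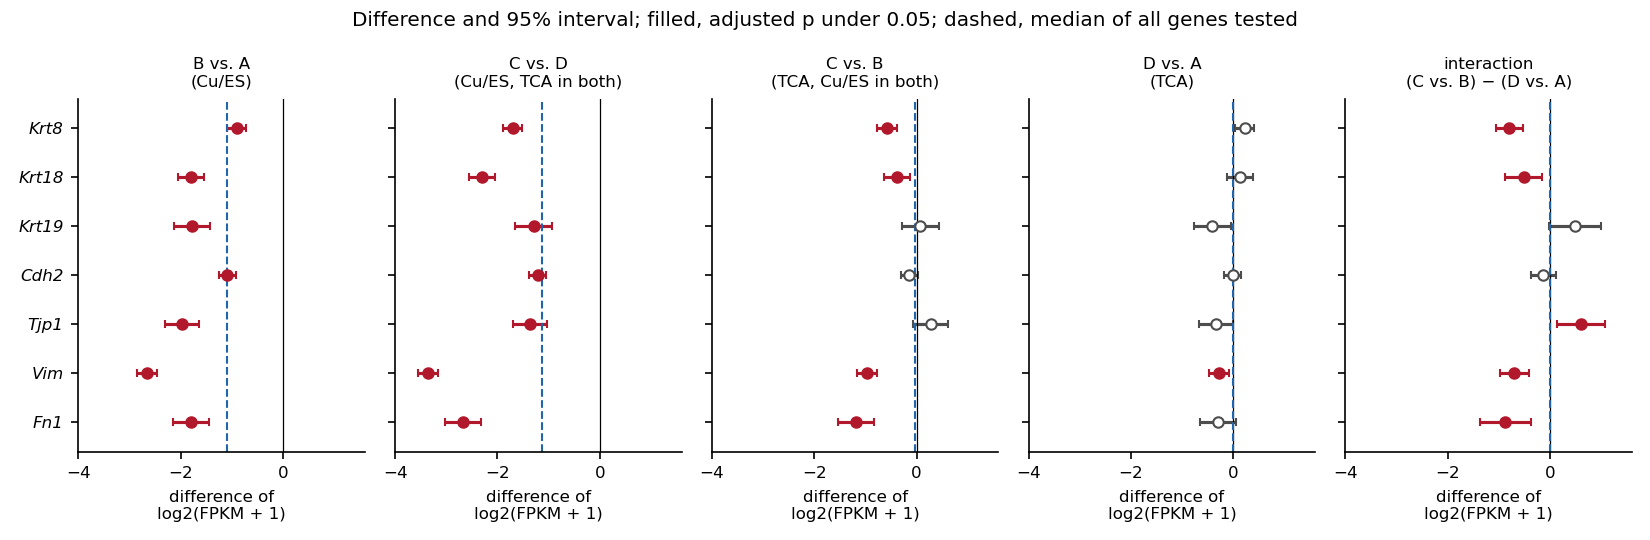
Difference of log2(FPKM + 1) with its 95% interval for the 7 genes tested, in B vs. A, C vs. D, C vs. B, D vs. A and as the interaction, filled where the adjusted p was under 0.05 (limma), with the median of all genes dashed. Vim lay at -2.66 in B vs. A, left of the dashed median at -1.10, whereas Cdh2 at -1.09 lay on it.

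The effect of TCA differed between cells with and without Cu/ES for 5 of the 7 genes. In this interaction, the difference C vs. B minus the difference D vs. A, Krt8 (-0.80, adjusted p = 3.15e-04, limma), Vim (-0.70, adjusted p = 0.00114), Fn1 (-0.87, adjusted p = 0.00955) and Krt18 (-0.51, adjusted p = 0.0274) were negative, against 19.8% of all genes. Tjp1 was positive (0.61, adjusted p = 0.0441), against 17.7% of all genes. The call of Krt18 was lost without each of A replicates 1 and 2, B 1 and 3, C 1 and 3, and D 1 and 3 (adjusted p = 0.0534 to 0.0732). The call of Tjp1 was lost without any single library other than C replicate 2 (adjusted p = 0.0541 to 0.107), while without that library it was 0.86 (adjusted p = 3.51e-05). It was also lost with a pseudocount of 0.1 (0.0536), TPM (0.0557) and no filter (0.138), the call of Krt18 with no filter (0.0932), and that of Fn1 under quantile normalization (-0.57, adjusted p = 0.111). Krt19 (0.48, interval -0.02 to 0.99, adjusted p = 0.119) and Cdh2 (-0.13, interval -0.37 to 0.11, adjusted p = 0.374) gave no call, although Krt19 passed under quantile normalization (0.64, adjusted p = 0.0443).

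Ratios of genes within a library are the same under any scaling by 1 factor per library, though not under quantile normalization, and show how the balance between these genes shifted. Krt8 to Krt18, the type II keratin relative to its partner, was 1.07 to 1.46 in group A and 1.26 to 1.34 in D, and 2.07 to 2.37 in B and 1.76 to 2.23 in C, so the partner pair was closest to equal in cells without Cu/ES. With both type I keratins in the denominator the ratio was 0.632 ± 0.141 in A, 1.16 ± 0.0889 in B, 0.855 ± 0.0488 in C and 0.785 ± 0.0917 in D (SD, n = 3). By these means the 2 types were closer to equal with Cu/ES, although the ranges of C and D overlapped. Krt19 to Krt18 was 1.12 to 1.44 in group C, above 0.928 to 0.957 in B and 0.499 to 0.747 in D. The summed level of Krt8, Krt18 and Krt19 was 896 ± 49.3 FPKM in A, 342 ± 39.9 in B, 265 ± 21.4 in C and 914 ± 58.8 in D.

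The ratio of Vim to its keratin counterparts was lower with Cu/ES. Vim to Krt8 was 5.53 to 6.42 in group A, 4.22 to 4.40 in D, 1.78 to 1.82 in B and 1.26 to 1.47 in C, with no overlap between any of the groups compared. Vim to Krt18 was 6.89 to 8.10 in A, 5.32 to 5.87 in D, 3.78 to 4.23 in B and 2.59 to 2.80 in C, also without overlap. Fn1 to Vim went the other way, from 0.0698 to 0.0827 in A to 0.106 to 0.195 in B, and C at 0.103 to 0.140 overlapped with B. The ratio of N-cadherin to E-cadherin transcripts, Cdh2 to Cdh1, ran from 182 to 1563 in A and from 187 to 394 in D, where it rests on few Cdh1 reads, and was 5.06 to 7.89 in B and 2.64 to 4.91 in C. Each of these ratios thus separated the libraries with Cu/ES from those without.

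**Figure D3:**
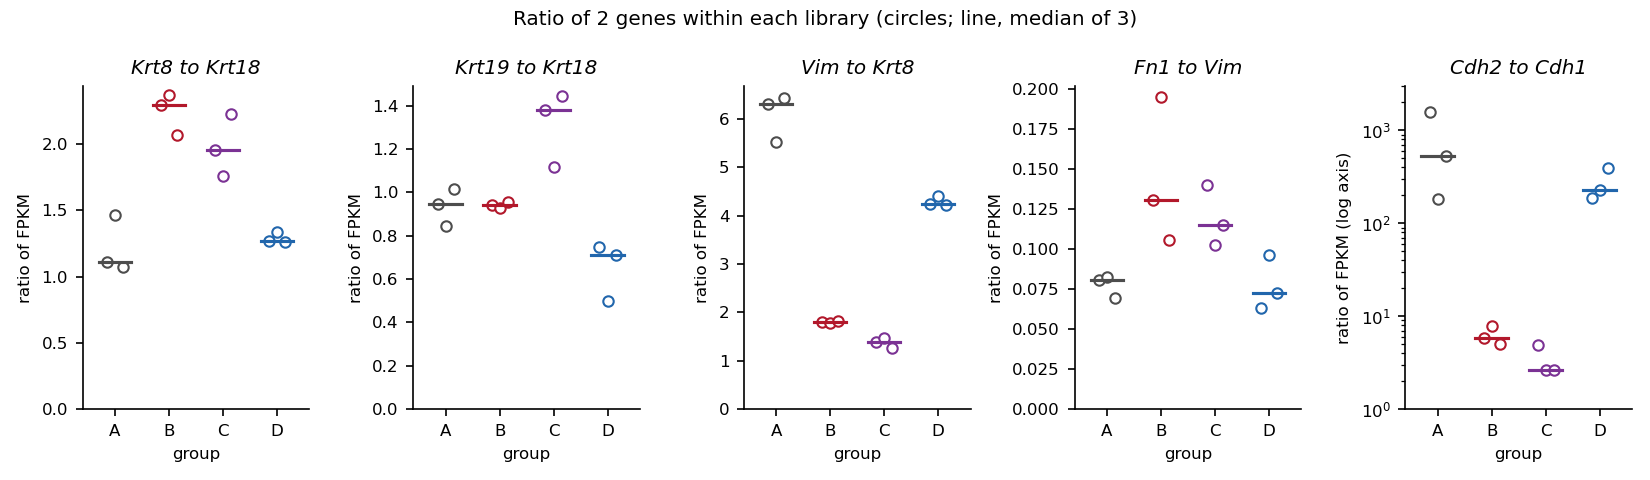
Ratio of the FPKM of 2 genes within each library (circles, with the median of 3 as a line) in groups A, B, C and D, on linear axes from 0 except Cdh2 to Cdh1, which has a log axis. Vim to Krt8 lay at 5.53 to 6.42 in group A and at 1.26 to 1.47 in group C.

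The genes whose profiles over the 12 libraries were most like those of the members were named by the root mean square difference of log2(FPKM + 1), each relative to its group A mean. For Cdh2 these were Exoc6b, Ndufs1 and Fndc3b (0.05 to 0.06), for Krt8 Dctpp1 and Dbi (both 0.11) and for Tjp1 Usf3, St3gal1 and Chst11 (0.09 to 0.11). For Krt18 they were Vapb, Lap3 and Tma7 (0.12 to 0.13), for Krt19 Rhov, Fam241a and Bnip3l (0.14 to 0.18), for Vim Lage3, Pbk and Cbx3 (0.14 to 0.15) and for Fn1 Nedd4, Kif15 and Ppic (0.17 to 0.20). Among themselves the members were less alike, with Krt8 and Cdh2 closest at 0.24, Krt19 and Tjp1 at 0.32, Krt18 and Krt19 at 0.39, and Vim no nearer than 0.60 to any other. Over libraries that separate by treatment such likeness is a description only.

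The genes around the 10 were described by lists chosen with earlier results known. Of the other keratins, 4 of 13 listed were tested. In B vs. A, 1 fell past both thresholds and none rose, against 53.0% and 10.1% of all genes. Under median-ratio scaling 2 rose and 1 fell, against 25.9% and 25.5% of all genes, shares that apply to each list below. Quantile normalization gave the same counts, against 20.7% and 22.2%. The gene that fell in the fit as described was Krt13, a type I keratin of stratified epithelia, at 1.64 ± 0.123 FPKM in B against 22.2 ± 2.77 in A (log2 difference -3.13, adjusted p = 2.68e-12, limma). Of the desmosome and keratin-linker genes tested, 5 of 7 fell and 1 rose past both thresholds in B vs. A, against 53.0% and 10.1% of all genes, with a list median of -1.36 beside -1.10. Jup, which encodes the plaque protein plakoglobin, fell from 28.8 ± 0.386 to 3.96 ± 0.857 FPKM (-2.60, adjusted p = 2.37e-10) and rose again to 9.57 ± 2.14 in C vs. B (1.09, adjusted p = 5.03e-05). Pkp4, a plakophilin, rose in B vs. A (1.23, adjusted p = 1.52e-09). Under median-ratio scaling the desmosome list had 2 falls and 2 rises.

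Around Cdh1 and Cdh2, 4 of 9 adherens junction genes tested fell past both thresholds in B vs. A and 0 rose, against 53.0% and 10.1% of all genes, with a list median of -0.997 beside -1.10 for all genes. Ctnnal1, which encodes an alpha-catenin-like protein, fell from 17.1 ± 0.716 to 0.552 ± 0.157 FPKM (-3.55, adjusted p = 1.84e-13, limma). Ctnna1 and Ctnnb1, which encode the catenins that tie cadherins to actin and were named after their values were seen, differed by 0.06 (adjusted p = 0.412) and -0.68 (adjusted p = 2.84e-06), but the sign of Ctnna1 was negative under TPM and quantile scaling (-0.31 and -0.13) and Ctnnb1 was higher by 0.60 under median-ratio scaling. Nectin2, an adhesion receptor of the same junctions, rose in C vs. B (0.39, adjusted p = 0.0018). Under median-ratio scaling the list had 1 fall and 1 rise in B vs. A.

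Around Tjp1, 3 of 7 tight junction genes tested fell past both thresholds in B vs. A and 1 rose, against 53.0% and 10.1% of all genes, with a list median of -0.28. Cgnl1, which encodes the junction protein paracingulin, fell from 15.6 ± 0.736 to 1.77 ± 0.125 FPKM (-2.59, adjusted p = 4.73e-12, limma), and Amotl2, an angiomotin family gene, rose from 3.35 ± 0.631 to 16.9 ± 0.524 FPKM (2.05, adjusted p = 7.32e-11). With TCA added, in C vs. B, 4 of the 7 rose and 1 fell at the adjusted p, against 20.4% and 23.6% of all genes, led by F11r, which encodes a junctional adhesion molecule (0.54, adjusted p = 6.09e-04). Of the polarity complex genes, 5 of 11 fell and 2 rose past both thresholds in B vs. A, at the same shares of all genes. Llgl1, a Scribble complex gene, fell (-3.02, adjusted p = 2.3e-12) and Prkci, which encodes an atypical protein kinase C, rose (1.12, adjusted p = 1.71e-09). Under median-ratio scaling the tight junction list had 2 falls and 2 rises and the polarity list 2 falls and 3 rises.

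Of the epithelial transcription and splicing regulators, 6 of 15 were tested, of which 1 fell and 2 rose past both thresholds in B vs. A, against 53.0% and 10.1% of all genes. Grhl2, a factor known to activate Cdh1, rose from 2.71 ± 0.537 FPKM in A to 16.1 ± 2.01 in B (2.21, adjusted p = 5.68e-11, limma) and stood at 19.5 ± 0.975 in C against 2.29 ± 0.0493 in D (2.64, adjusted p = 7.96e-12). Of the factors known for the transition, 6 of 12 fell, a share near the 53.0% of all genes, and 3 rose, against 10.1%, with a list median of -1.10, the same as for all genes to the second decimal. Twist1 fell from 27.9 ± 3.39 to 1.77 ± 0.125 FPKM (-3.37, adjusted p = 2.59e-13), whereas Sox9 rose from 10.6 ± 2.75 to 50.9 ± 3.59 FPKM (2.19, adjusted p = 1.51e-09). Snai1, which encodes SNAIL and was named after its values were seen, rose from 10.2 ± 0.557 to 32.5 ± 1.23 FPKM (1.58, adjusted p = 2.23e-11). Under median-ratio scaling there were 2 falls and 5 rises in this list.

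Among mesenchymal and contractile genes tested, 6 of 12 fell and 1 rose past both thresholds in B vs. A, against 53.0% and 10.1% of all genes, led by Cnn2, a calponin gene (-2.64, adjusted p = 1.36e-12, limma). With TCA added, 5 of 12 fell and 1 rose in C vs. B at the adjusted p, against 23.6% and 20.4% of all genes, and Tpm2, a tropomyosin gene, fell from 11.4 ± 0.885 to 2.86 ± 0.332 FPKM (-1.68, adjusted p = 1.42e-07). Of the matrix-linked genes without collagens, 9 of 15 fell and 3 rose in B vs. A, against the same 53.0% and 10.1%. Loxl2, a matrix crosslinking oxidase gene, fell from 68.9 ± 1.43 to 4.03 ± 0.939 FPKM (-3.81, adjusted p = 1.36e-12), and Ccn2, which encodes connective tissue growth factor, rose from 0.840 ± 0.477 to 278 ± 89.1 FPKM (7.23, adjusted p = 5.72e-12). Of these 15, 8 fell and 1 rose at the adjusted p in C vs. B, against 23.6% and 20.4% of all genes, with a list median of -0.49 against -0.03 for all genes, and Sparc, which encodes osteonectin, fell from 123.4 ± 10.1 to 45.4 ± 6.94 FPKM (-1.43, adjusted p = 2.07e-06). These falls in C vs. B stood beside those of Vim and Fn1. At the adjusted p, the counts in C vs. B under median-ratio scaling were 5 and 9 falls with 1 rise in each list. The share of all genes at the adjusted p under that scaling was not computed. Past both thresholds in B vs. A, that scaling gave 3 falls and 4 rises in the contractile list and 7 falls and 5 rises in the matrix list, against 25.5% and 25.9% of all genes.

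Of the fibronectin receptor and adhesion genes tested, 11 of 15 fell past both thresholds in B vs. A, against 53.0% of all genes, and 0 rose, against 10.1%. All 15 fell at the adjusted p, against 72.0% of all genes, with a list median of -1.52 beside -1.10. Itga6, an integrin alpha chain gene, fell from 101 ± 6.19 to 3.75 ± 0.633 FPKM (-4.43, adjusted p = 3.6e-13, limma). The list was mixed in C vs. B, with 4 rises and 5 falls at the adjusted p against 20.4% and 23.6% of all genes, and Itgb3, an integrin beta chain gene, rose from 4.87 ± 0.325 to 13.1 ± 1.56 FPKM (1.26, adjusted p = 6.17e-07). Under median-ratio scaling 4 genes fell past both thresholds in B vs. A and 0 rose, against 25.5% and 25.9% of all genes. At the adjusted p there were 8 falls and 3 rises under that scaling, for which the share of all genes was not computed.

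In the TGF-beta pathway, the best known inducer of the mesenchymal program, 11 of 19 genes fell past both thresholds in B vs. A, a share near the 53.0% of all genes, and 4 rose, against 10.1%, with a list median of -1.33 beside -1.10. Smad7, the inhibitory SMAD gene, rose from 5.42 ± 0.653 to 176 ± 0.595 FPKM (4.79, adjusted p = 7.68e-15, limma), and Tgfbr3, a co-receptor gene, fell from 19.4 ± 1.48 to 0.407 ± 0.117 FPKM (-3.86, adjusted p = 5.45e-13). In C vs. B, 4 rose and 4 fell at the adjusted p, near the 20.4% and 23.6% of all genes, and Id3, a target of BMP and SMAD signals, fell from 42.8 ± 2.20 to 13.8 ± 2.64 FPKM (-1.58, adjusted p = 2.61e-06). Under median-ratio scaling there were 4 falls and 5 rises in B vs. A. Every gene of these lists that is named here with a change in B vs. A, Ctnna1 and Ctnnb1 apart, kept its sign under TPM, median-ratio and quantile scaling.

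**Figure D4:**
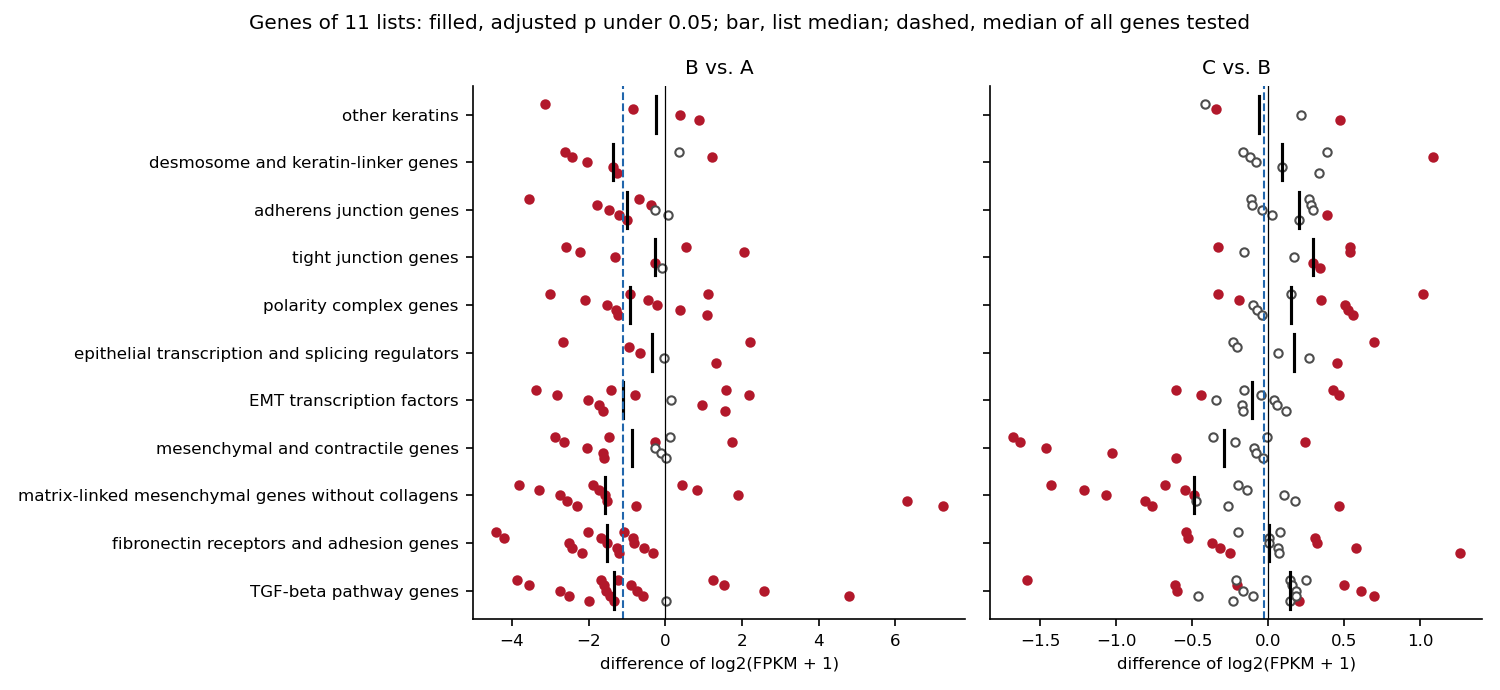
Difference of log2(FPKM + 1) of the tested genes of 11 lists around the described genes in B vs. A and C vs. B, filled where the adjusted p was under 0.05 (limma), with the list median as a bar and the median of all genes dashed. The list of fibronectin receptors and adhesion genes lay wholly left of 0 in B vs. A, and the matrix-linked list had its median at -0.49 in C vs. B.

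Markers of other liver cells moved with the treatment as well. The summed level of 8 endothelial markers was 1.04 to 1.24 FPKM in group A, 0.916 to 1.30 in D, 10.5 to 15.2 in B and 23.9 to 26.95 in C, led by Pecam1, an endothelial adhesion gene, at 6.85 ± 2.35 FPKM in B against 0.214 ± 0.0633 in A (2.65, adjusted p = 6.41e-10, limma). Of these 8 markers, 5 were under 1 FPKM in every library and 3 were tested. Of the 3, 2 rose past both thresholds in B vs. A and 0 fell, against 10.1% and 53.0% of all genes. Cdh1 also rose in B vs. A, and a link between the rises was not tested. The stellate cell and fibroblast markers measured 1.27 to 1.76 FPKM in C and 13.3 to 25.6 in D, and the macrophage and leukocyte markers fell from 5.86 to 6.90 FPKM in A to 1.43 to 2.69 in B, with Cd14, named after its values were seen, alone at 6.22 ± 0.572 and 1.78 ± 0.622 FPKM. The bile duct markers, 8 of 10 in the table, summed to 682 to 718 FPKM in A and 1168 to 1348 in B. In C and D they summed to 665 to 874 and 571 to 614 FPKM. The sum was led by Spp1, at 1190 ± 94.9 FPKM in B. The matrix list also holds Spp1, as the list of transition factors holds Sox9. Of the 5 bile duct markers tested, 2 rose and 2 fell past both thresholds in B vs. A, against 10.1% and 53.0% of all genes. Slc4a2 fell from 15.9 ± 1.86 to 4.99 ± 0.543 FPKM (adjusted p = 1.66e-09, limma). Under median-ratio scaling 3 of the 5 rose and 0 fell past both thresholds. The hepatocyte markers summed to 2.45 to 4.32 FPKM in B. The part of these shifts in the levels of the 10 genes was not tested.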

How the data were processed

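Polyadenylated RNA of 12 libraries was sequenced, and the authors deposited FPKM values per gene. The submitters' processing notes name fastp, HISAT2, HTSeq and GRCm39, and the study tested counts with DESeq2. The annotation and strand setting were not given in the sources used here. Because FPKM values step by whole reads, reads were recovered for 22210 of the 22212 genes above 0 in 2 or more libraries (tolerance 0.02 reads). They cannot be recovered for genes above 0 in only 1 library, Krt7 among them. Groups were taken from the labels. Values were tested as log2(FPKM + 1) with limma 3.58.1 in R 4.3.3, with trend, over all 12 libraries (8 residual degrees of freedom) and the 10615 genes with a mean of at least 1 FPKM, with Benjamini-Hochberg adjustment. Fold changes on this scale understate those of low genes. Thresholds were an adjusted p below 0.05 and, for B vs. A and C vs. D, also a log2 fold change beyond 1. The fit was tested on simulated data with normal noise and a small share of changed genes. The simulation held no shift of the whole profile, so it does not bear on the choice of scaling. Alternatives for the 10 genes changed the pseudocount, filter, scaling, replicate block, groups fitted and test, and left out each library. Genes of the lists were examined only under the other scalings. The unfiltered fits of Cdh1 and Epcam were chosen after seeing the data. The 10 genes and the 16 lists around them were chosen with earlier results of these data known. From each list, the gene with the largest rise and the largest fall past the adjusted p, with a mean of at least 5 FPKM and no overlap of groups, was eligible to be named, and other genes are marked as chosen after their values were seen. One gene with a profile like that of Krt8 is not reported here. Replicate numbers paired the libraries only in B vs. A, by the rule that the deviations from the group means of every same-numbered pair correlate above 0.1 (0.142 to 0.174 over 3 pairs). In D vs. A the same-numbered pairs correlated at 0.0872 to 0.579, with 2 of 3 over 0.1. The labels do not say what a number shares. The replicate block changed no call in B vs. A among the genes of interest that were fitted, but it changed calls in D vs. A and in the interaction, given at the end. Intervals of read ratios are exact at 95%. Tables and figures were made with Python 3.11.15, matplotlib 3.10.9, scipy 1.17.1, numpy 2.4.6 and pandas 2.3.3.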

Additional observations from a re-analysis of the deposited data

Results flagged for a closer look

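The effect of TCA on 5 of the 7 tested genes differed between cells with and without Cu/ES, by the interaction term of the limma fit, with 4 negative and 1 positive against 19.8% and 17.7% of all genes tested. The difference of the log2 differences was -0.80 for Krt8, -0.51 for Krt18, 0.61 for Tjp1, -0.70 for Vim and -0.87 for Fn1, with adjusted p of 3.15e-04, 0.0274, 0.0441, 0.00114 and 0.00955. Krt8, Vim and Fn1 kept the call without each library in turn, whereas Krt18 lost it without 8 of the 12 libraries and Tjp1 without 11. Without replicate 2 of group C, the values were -0.86 for Krt8, -0.65 for Krt18, 0.86 for Tjp1, -0.80 for Vim and -0.88 for Fn1.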

How the results depend on the processing

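The count of tested genes past both thresholds fell from 6 to 1 in B vs. A and from 7 to 3 in C vs. D under median-ratio scaling, which sets the median gene near 0, and the sign turned for Krt8 (0.38) and Cdh2 (0.00695) in B vs. A. Of all genes, 25.5% and 27.2% fell past both thresholds under that scaling. With quantile normalization the counts were 6 and 5, all falls, against 22.2% and 23.1% of all genes. Under quantile normalization Cdh2 was 0.27 in B vs. A and 0.0881 in C vs. D. Among differences that passed under neither setting, the sign also turned for Cdh2 in D vs. A (0.0246 with median-ratio scaling, 0.0435 with quantile normalization) and for the interaction of Cdh1 (-0.116 with limma-voom). The count in D vs. A was 1, and it was 0 with median-ratio scaling, no filter or 0.1 as pseudocount, 3 with quantile normalization and 2 in a fit of the compared groups. The interaction count went from 5 to 3 without a filter. The cause was not tested. Leaving out each library in turn gave 6 in B vs. A, 7 in C vs. D, 3 to 5 in C vs. B, 0 to 2 in D vs. A and 3 to 5 for the interaction. It also turned the sign of differences that passed in no case, with ranges of -0.0522 to 0.180 for Krt19 in C vs. B, -0.0462 to 0.0190 for Cdh2 in D vs. A and -0.0741 to 0.127 for Epcam in the interaction (-0.0741 without A replicate 3, -0.0658 without D replicate 2). Over single genes, 344 of the values under the other settings kept direction and side of the threshold, 19 lost the call, 6 gained it and 7 reversed. Over all groups, deviations of same-numbered libraries correlated at a mean of 0.125 (-0.171 to 0.579, 11 of 18 pairs over 0.1) and those of other pairs at -0.0590 (7 of 36 over 0.1), and 7 of 12 libraries correlated best with one of their own number; outside B vs. A not every pair was over 0.1. With the replicate block the counts were 6, 7, 4, 1 and 6, Krt19 passed in D vs. A (-0.41, adjusted p = 0.0260) and the interaction (0.0374), and Vim did not in D vs. A (0.0566). Depth limits Cdh1 and Epcam, which rest on few reads, and Krt7, which was above 0 in 1 library.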
